A study of Drosophila melanogaster with 2 samples.

Results

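MicroRNA (miRNA) genes of Drosophila melanogaster were examined for binding of Crol (crooked legs), a zinc finger protein named for its adult leg phenotype. The members were the genes on arms 2L, 2R, 3L, 3R, 4 and X of the dm6 assembly whose symbol begins with mir-, 260 genes of 17683 annotated genes. A gene was counted as having a peak when a peak summit lay within 2 kb of its 5′ end, and 63 of the 260 genes had one. Genes on the same strand with gaps of at most 10 kb were joined into 203 loci, of which 55 had a peak. The 63 genes lay near 81 distinct peaks of the 9211 in the list.

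The data were ChIP-seq of a Crol-eGFP fusion protein from transgenic flies, immunoprecipitated with an antibody to GFP per the description of the samples, while another label field names crol as the antibody. Whole embryos of 0 to 24 h were used, and both libraries were biological replicates of 1 group carrying the crol-eGFP insertion. There was no second genotype, treatment or stage, so no comparison between conditions was possible. The control experiment named in the labels was not analysed here. A whole embryo mixes all of its cell types and stages, so binding in few cells and weak binding in many cells cannot be told apart.

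A miRNA is generally cut from a hairpin in a longer primary transcript by Drosha and then by Dicer. The mature strand guides Argonaute to messenger RNAs through its seed, bases 2 to 8. A miRNA gene in the annotation is the hairpin alone. Its transcription starts elsewhere, either at the promoter of a non-coding primary transcript or at that of a host gene in whose intron or exon the hairpin lies, and neighbouring hairpins can come from 1 transcript.

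The mature strands of members that the results turn on are shown because seeds group them into families, and because members with the same seed can have different peaks. They were read from the RefSeq assembly of the same genome, and the capitals mark the seed. The 5p strand comes from the 5′ side of the hairpin and the 3p strand from its 3′ side.
mir-34 5p: uGGCAGUGugguuagcugguugug
mir-277 3p: uAAAUGCAcuaucugguacgaca
mir-317 3p: uGAACACAgcuggugguauccagu
mir-279 3p: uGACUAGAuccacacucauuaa
mir-996 3p: uGACUAGAuuucaugcucgucu
mir-13a 3p: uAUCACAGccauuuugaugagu
mir-13b-1 3p: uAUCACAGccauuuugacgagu
mir-2c 3p: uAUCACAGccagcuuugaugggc
mir-2b-2 3p: uAUCACAGccagcuuugaggagc
mir-ban 3p: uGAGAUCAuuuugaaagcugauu
mir-iab-4 5p: aCGUAUACugaauguauccuga
mir-iab-8 5p: uUACGUAUacugaagguauaccg
mir-10 5p: aCCCUGUAgauccgaauuuguu
mir-1 3p: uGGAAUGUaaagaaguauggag

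The genome is shown at the summits of the 5 peaks that followed the strongest one in signal. The strongest peak, that of mir-281-2 and mir-281-1, is not shown. Each window holds the 50 bases on either side of the summit on the plus strand of dm6, read from RefSeq. Capitals mark a run of GGGGG or a repeat of GAGAG on either strand, so that CCCCC and CTCTC are also marked.
mir-34 and mir-277, chr3R:10100696-10100796: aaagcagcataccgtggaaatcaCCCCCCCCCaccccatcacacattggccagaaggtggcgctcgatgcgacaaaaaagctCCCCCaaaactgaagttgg
mir-9370, chrX:11710596-11710696: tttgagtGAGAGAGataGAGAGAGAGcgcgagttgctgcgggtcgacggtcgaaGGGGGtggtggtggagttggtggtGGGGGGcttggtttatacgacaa
mir-9377, chrX:12665439-12665539: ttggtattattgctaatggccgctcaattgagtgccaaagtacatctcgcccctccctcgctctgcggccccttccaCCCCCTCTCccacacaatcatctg
mir-4957, chrX:15320105-15320205: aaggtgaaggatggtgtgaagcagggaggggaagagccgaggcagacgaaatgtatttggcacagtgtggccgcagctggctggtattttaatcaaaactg
mir-314 and mir-956, chr3L:11772698-11772798: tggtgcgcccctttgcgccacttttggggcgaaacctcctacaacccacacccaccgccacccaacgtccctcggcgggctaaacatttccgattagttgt

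The share of miRNA genes with a summit within 2 kb was close to that of genes in general. It was 24.2% of 260 genes, with an exact 95% binomial interval of 19.2% to 29.9% that covers counting only. Over all 17683 genes the share was 25.5%, and 19.1% of the bases of the 6 arms lay within 2 kb of a summit. Among loci, 27.1% had a peak (interval 21.1% to 33.8%). Loci hold genes of 1 strand, so 4 of the 55, those of mir-314, mir-956, mir-iab-4 and mir-iab-8, were counted through 2 peaks shared across strands. Protein-coding genes stood at 25.4% and non-coding RNA genes other than miRNA at 28.1%. The shares of snoRNA genes (33.8%) and tRNA genes (31.7%) were higher than that of the miRNA genes, with intervals that overlapped its own.

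Within 500 bp of the 5′ end, 22 miRNA genes or 8.46% had a summit (interval 5.38% to 12.5%), against 11.8% of all genes and 12.4% of protein-coding genes. For a hairpin the 5′ end is not a transcription start, so the shorter window does not measure a promoter as it does for a protein-coding gene. The summits spread over the whole window, with 21 of the 81 peaks up to 500 bp from the nearest member, 24 between that and 1000 bp, and 36 in all farther out. Of the 81, 46 lay upstream and 35 downstream of that 5′ end. In 2 genes, mir-4980 in CanB2 and mir-3645 in Mlc-c, the summit fell inside the hairpin itself, and in both it also lay within 500 bp of a start of the host, at 409 bp for CanB2 and 236 bp for Mlc-c.

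**Figure D1:**
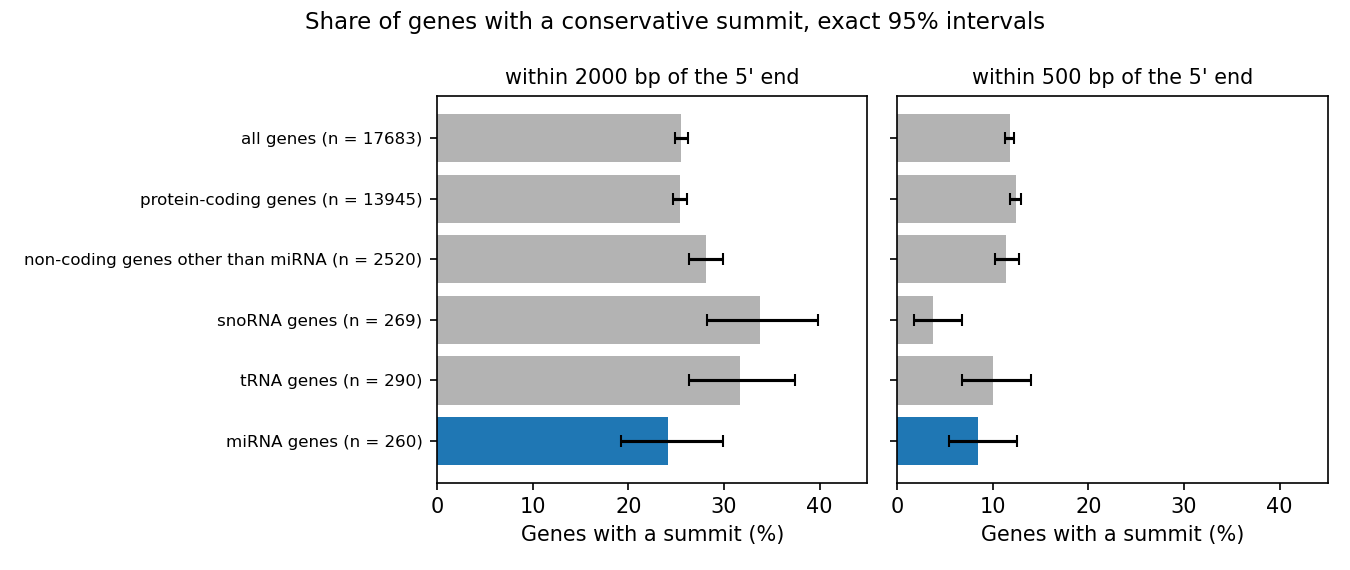
Share of genes with a conservative summit (x axis, percent of genes in the class) within 2000 bp (left) and within 500 bp (right) of the gene 5′ end, for 6 gene classes; whiskers are exact 95% binomial intervals. The miRNA bar stands at 24.2% on the left, beside 25.5% for all genes, and at 8.46% on the right, beside 11.8%.

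The signal of a peak, the authors' height, whose scaling the files do not state, had a median of 128 over the 81 peaks, with quartiles of 85.4 and 194. The median of all 9211 peaks was 113, with quartiles of 78.6 and 191. Of the miRNA peaks, 5 were among the 500 strongest of the list, a share of 6.17% against 5.43% of all peaks. A summit lay within 500 bp of a transcription start of another gene in 24 of the 81 peaks, or 29.6%, and in 27.3% of all peaks.

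**Figure D2:**
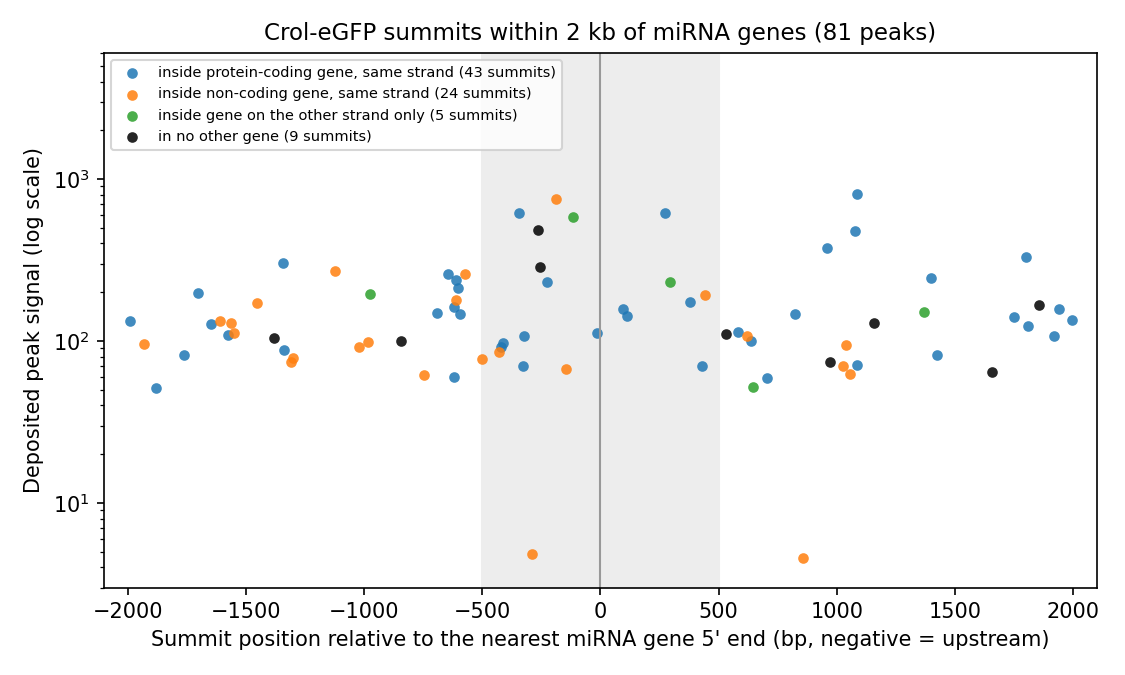
Position of the 81 summits relative to the 5′ end of the nearest miRNA gene (x axis, bp, negative upstream) and their deposited signal (y axis, log scale), coloured by where the miRNA gene lies; the grey band is 500 bp on either side. The strongest summit, at 805, lies 1086 bp from the nearest member, and beyond that distance the highest is 332, for mir-4918. The lowest 2 summits lie far below the others, at signals of 4.81 and 4.57.

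Replicate values were taken from the ranked list between replicates. Over the 81 peaks the median signal was 70.5 in replicate 1 and 55.3 in replicate 2. The signal was higher in replicate 1 in 55 peaks, and the replicates were within a factor of 2 in 75. The log2 ratio of replicate 1 to replicate 2 had a median of 0.27 and an SD of 0.52 over the miRNA peaks, and 0.28 and 0.47 over all peaks. In the replicates' own thresholded lists, 66 of the 81 peaks overlapped a peak of replicate 1, 53 one of replicate 2, 49 one of both and 11 one of neither.

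The strongest peak was shared by mir-281-1 and mir-281-2, which lie in an intron of Oda (ornithine decarboxylase antizyme) on arm 2R. Both also lie in an exon of asRNA:CR46194, a non-coding gene of the same strand. The signal of the peak was 805, with 432 in replicate 1 and 366 in replicate 2. Its summit lay 1086 bp downstream of the 5′ end of mir-281-2 and 427 bp from a start of SmD3. The next peak, of mir-34 and mir-277, had a signal of 755, with 364 in replicate 1 and 387 in replicate 2. The replicate ranges of these 2 peaks overlapped, so their order is not resolved, whereas the ranges of the mir-34 peak and of the next, that of mir-9370, did not.

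Then came the peaks of mir-9370, mir-9377 and mir-4957, all on X. The peak of mir-9370, in an exon of Amun, had a signal of 616 (339 and 269.7 in replicates 1 and 2), and that of mir-4957 had 581 (308 and 266). mir-4957 lies in an intron of Top1 on the other strand, and its summit lay 214 bp from a start of Top1. The peak of mir-9377, in an intron of Tis11, an RNA-binding protein of mRNA decay, had 615 with 110.0 in replicate 1 and 280.1 in replicate 2. In its own ranked list, replicate 1 had 2 summits in that interval, and the stronger one, 114 bp from the joint summit, reached 339. The replicate 1 value of this peak, 110.0, is thus not that of the stronger summit.

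mir-314 and mir-956, on opposite strands of 3L, shared a peak of 484 (284 and 209), 264 bp upstream of mir-314. The peak of mir-4985, in an intron of Fatp3, had 479.5 (239 and 243) and lay 89 bp from a start of Fatp3. mir-278, a regulator of energy balance and insulin response, had a peak of 373 (187 and 189) 959 bp downstream. The ranges of mir-4985 and mir-278 did not overlap.

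The rest of the 12 strongest peaks were of mir-4918 (332, with 199 and 132), of mir-iab-8 and mir-iab-4 (304, with 168 and 133), of mir-2496 (285, with 149 and 134) and of mir-279 (269.6, with 135 and 139.6). In the order of all 81 peaks, 76 of the 80 neighbouring pairs had overlapping replicate ranges, so only a few steps of the order are resolved. All 12 were also covered in the thresholded list of each replicate.

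**Figure D3:**
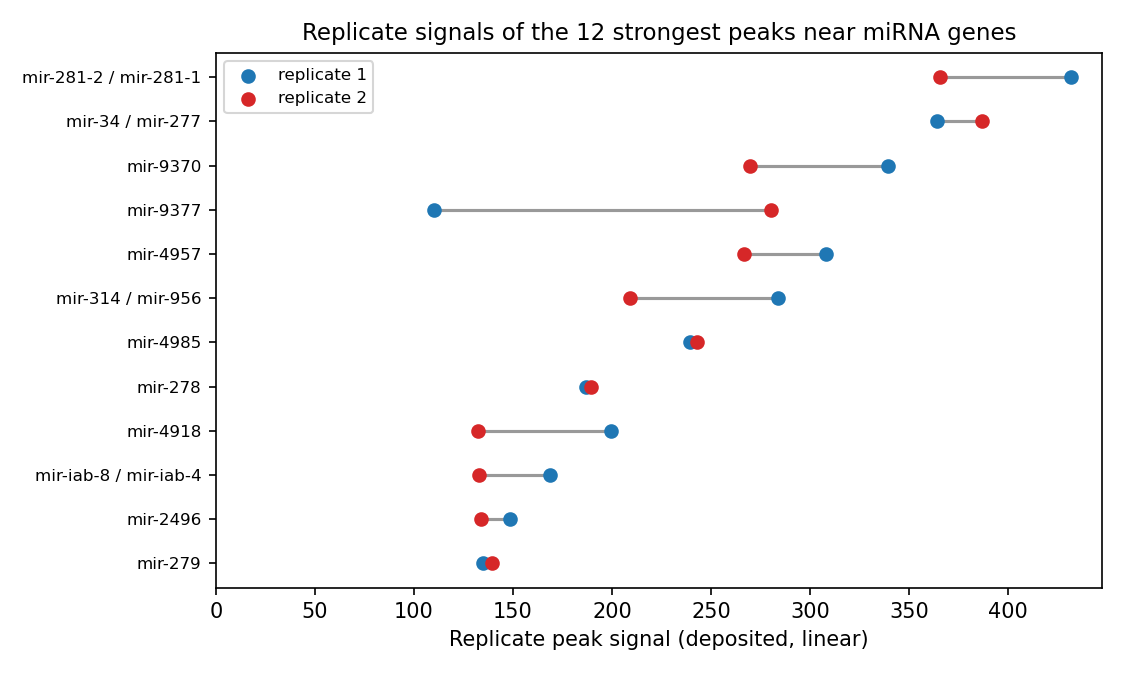
Signal in replicate 1 (blue) and replicate 2 (red) of the 12 strongest peaks near miRNA genes (x axis, deposited signal on a linear scale), in order of the joint signal from top to bottom. The replicates lie close for mir-4985 (239 and 243) and far apart for mir-9377 (110.0 and 280.1). There the replicate 1 value is not that of the stronger replicate 1 summit in the same interval.

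The locus of mir-317, mir-277 and mir-34 on 3R was one of 3 loci of 3 genes with a peak, the largest number in a locus with one, and all 3 of its genes had a peak. mir-34 is known in the fly for its part in ageing of the brain and mir-277 for the control of branched-chain amino acid breakdown. The strong summit lay 190 bp upstream of mir-34 and 724 bp downstream of mir-277. mir-277 also had summits of 112 (78.0 and 34.3) and 85.4 (50.2 and 33.5), and mir-317 had one of 104 (47.3 and 76.3) 1380 bp upstream. The annotated primary transcript of mir-277 and mir-34, lncRNA:CR43459, held 4 summits and had none within 500 bp of its start. The strong summit lay 6985 bp from that start, near the 3′ end of the transcript, with the 3′ end of Fmr1, on the other strand, 484 bp beyond the mir-34 5′ end.

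**Figure D4:**
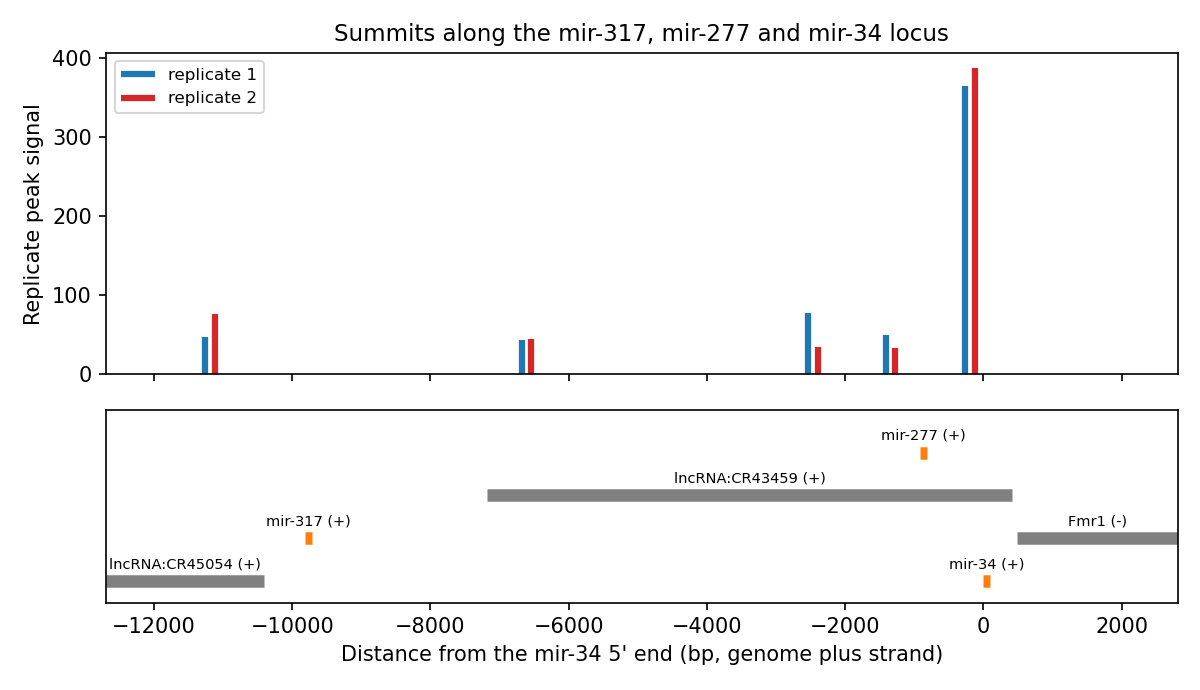
Summits around mir-34 (top, replicate signal of each summit, blue replicate 1 and red replicate 2) and annotated genes (bottom, miRNA genes in orange, strand in brackets) by distance from the mir-34 5′ end in bp. The summit 190 bp before mir-34 reaches 364 and 387, and the other 4 summits stay between 33.5 and 78.0.

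Of the 63 genes with a peak, 42 had 1, 14 had 2, 5 had 3 and 2 had 4, and mir-9377 and mir-4968 (in Mob2) were those with 4. The mir-4968 summits of 96.8 and 60.3 had overlapping peaks and the same replicate 2 signal, 55.6. Loci of 2 or more genes had a peak in 9 of 22 cases, or 40.9% (interval 20.7% to 63.6%). Single genes had one in 46 of 181, or 25.4% (19.2% to 32.4%), beside 25.5% of all genes. A locus counted when any of its genes had a peak, so loci of more genes had more windows in which to have one. The largest locus without a peak held 12 genes on X, from mir-972 to mir-979, and the next had 8 genes, the mir-309 cluster on 2R. The mir-309 cluster clears maternal mRNAs in the early embryo. Its nearest summit lay 7334 bp from mir-309, and no ranked peak lay within 2 kb of it.

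The counts were also taken by where the hairpin lay. Of 46 miRNA genes inside a non-coding gene but no protein-coding gene of the same strand, 19 had a peak (41.3%, interval 27% to 56.8%). Any miRNA gene inside both kinds of gene on its strand was counted with the protein-coding class. Of 136 inside a protein-coding gene of the same strand, 32 had one (23.5%, 16.7% to 31.6%). The counts were 10 of 51 for genes in no other gene (19.6%) and 2 of 27 for genes inside a gene of the other strand only (7.41%). No test was made of these differences, since genes of a cluster share transcripts and peaks.

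Starts of hosts were examined separately, with a summit within 500 bp of any annotated start. Of 128 same-strand protein-coding hosts, 43 or 33.6% had one, against 15.5% of all protein-coding genes. These hosts had a median of 2 annotated starts and a median length of 14095 bp, against 1 start and 2166 bp for all protein-coding genes, and the part of size and number of starts in the difference was not tested. Of 37 same-strand non-coding hosts, 18 or 48.6% had a summit at a start, against 11.9% of non-coding genes other than miRNA. Their median length was 6436 bp, against 706.5 bp, and both had a median of 1 start. Hosts can share a peak, as CG45092 and chk did among the protein-coding hosts. The same held for asRNA:CR17025 and asRNA:CR46354 among the non-coding hosts, so these counts are not counts of distinct peaks.

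Among the 182 miRNA genes inside a gene of the same strand, 33 had both a peak near the hairpin and one at a start of the host, 18 the first alone, 39 the second alone and 92 neither. For 14 genes a single peak met both conditions. These included mir-279, mir-375, mir-14, mir-8 and mir-282 in non-coding transcripts, and mir-4985 (Fatp3), mir-4977 (Eaf), mir-4980 (CanB2) and mir-92a (jigr1) in protein-coding genes.

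RefSeq names 22 non-coding genes as primary miRNA transcripts, and 10 of them, or 45.5% (interval 24.4% to 67.8%), had a summit within 500 bp of a start, beside the 11.9% of non-coding genes. Their median length was 4668 bp, and they overlap the non-coding hosts above. The strongest was at the start of lncRNA:CR42651, the primary transcript of mir-10, with 330.5 (196 and 136). That of mir-279 and mir-996, lncRNA:CR31044, had 269.6 (135 and 139.6) 99 bp from its start. The primary transcripts of mir-184 (208), mir-315 (205), mir-8 (142), mir-252 (121), mir-263a, listed as mir-bft (101), mir-14 (98.7), mir-13b-1 to mir-2c (93.5) and mir-9a (78.1) made up the rest. For mir-184, mir-315, mir-252, mir-bft and mir-9a the hairpin itself had no summit within 2 kb, so that the rule by hairpin leaves out a peak at the start of the transcript.

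The counts of the role lists below stand beside the 25.5% of all genes with a summit within 2 kb, and genes of a list can share a peak. The Hox complex list held 3 genes, all with a peak, from 2 distinct peaks. mir-iab-4 and mir-iab-8, made from opposite strands of 1 hairpin in the Bithorax complex and known to repress Ubx, shared a summit of 304, 1409 bp downstream of the first and 1342 bp upstream of the second. mir-10, in the Antennapedia complex, had one of 78.5 (51.8 and 28.0) 1299 bp upstream.

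Of 8 ecdysone-linked or temporal genes, 4 had a peak, beside 25.5% of all genes. mir-34 is described above, and mir-965, in an intron of the chromatin remodeler kis, had a summit of 239 (141 and 93.4) 610 bp upstream. mir-14, which limits cell death and acts in ecdysone signaling, had 3 summits, of 193 (109 and 80.8) 441 bp downstream, of 129 (55.6 and 65.3) and of 98.7 (66.6 and 37.2). mir-8, a growth regulator, had summits of 107 (72.2 and 33.9) and 61.4 (37.9 and 37.6). mir-100, mir-let7 and mir-125, the let-7 complex of late development, had none within 2 kb, and the nearest summit lay 5292 bp from mir-125. Their transcript, lncRNA:let7C, had a summit of 61.4 (39.9 and 27.7) 468 bp from a start.

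Of 18 growth and cell death genes, 9 had a peak, beside 25.5% of all genes, and the strongest peaks of these 9 were 7 distinct ones. The bantam miRNA (mir-ban), which promotes growth and blocks apoptosis, had summits of 180.0 (110.2 and 65.8) 612 bp upstream and of 133 (66.6 and 66.8) 1611 bp upstream, and its host lncRNA:CR43334 had one of 899 (515 and 373) 259 bp from a start. mir-13b-1, mir-13a and mir-2c shared a summit of 171 (118 and 54.0), and mir-2b-2, in spi, had one of 81.7 (50.9 and 30.5), with one of 865 (547 and 311) 204 bp from a start of spi. These 4 carry the seed AUCACAG, of a family that targets the apoptosis genes reaper, grim and sickle. RefSeq gave this seed to 14 members in 7 loci, and 5 of the 14 had a peak, mir-308 being the other one (132, with 79.7 and 46.1). mir-282 (95.1, with 41.8 and 53.8), mir-278 and mir-8 completed the list's 9.

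Of 6 metabolism and insulin genes, 5 had a peak, mir-278 and mir-14 among them, beside 25.5% of all genes, and the strongest peaks of these 5 were 4 distinct ones. mir-375 had a summit of 261 (140.4 and 123) 573 bp upstream. mir-275 and mir-305 shared one of 66.7 (35.3 and 30.7), 147 and 324 bp upstream of them. That shared peak overlapped no peak in either replicate's own thresholded list. mir-33, whose vertebrate relative acts in lipid metabolism, had none.

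Of the 11 matched neural and sensory organ genes, 3 had a peak. mir-279 and mir-996, which share a seed and restrict the formation of carbon dioxide sensing neurons, lay 1 after the other in lncRNA:CR31044, and mir-996 had its nearest strong summit, of 77.9 (47.5 and 29.5), 501 bp upstream. A second summit there of 4.81 had the same replicate records as this one. The same held for the summits of 62.2 and 4.57 near mir-316, a gene picked out after its values were seen. mir-957 had one of 64.4 (38.6 and 33.5), whose peak overlapped none in either replicate's own thresholded list. Of 3 muscle and mesoderm genes, mir-1, required for muscle, had a summit of 94.4 (55.8 and 33.5) 1041 bp downstream, and mir-92b and mir-184 had none within 2 kb. jigr1, a host of mir-92b, and lncRNA:CR44206, the host of mir-184, had summits at a start, of 114 (55.3 and 60.1) and 208 (108 and 96.1). The annotated primary transcript of mir-92b, lncRNA:CR45917, had none within 500 bp of a start.

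The zygotic clearance cluster (8 genes) and the clusters of testis or fast-evolving miRNAs (23 genes) had no member with a peak. Over all role lists, 22 of 74 distinct genes had one, or 29.7% (interval 19.7% to 41.5%), beside the 25.5% of all genes.

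The other genes with a summit within 500 bp were mostly in introns of protein-coding genes. These were mir-4962 in Tlk (112, at 14 bp), mir-4980 in CanB2 (157), mir-3645 in Mlc-c (143), mir-9378 in CG17124 (230.3), mir-4946 in tup (174), mir-967 in bun (92.0), mir-4912 in Fnta (70.4), mir-2492 in Drak (107) and mir-4968 in Mob2 (96.8). mir-4978, on the other strand of mam, had a summit of 231 at 296 bp, and mir-2496, in no other gene, one of 285 at 256 bp. The summit of mir-2496 lay 87 bp from a start of lncRNA:CR45478. mir-281-2 had a second summit of 69.8 at 429 bp. The peak of that summit and the peak of mir-4912 overlapped none in either replicate's own thresholded list.

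The rule's limit of 2 kb cut through a continuous range of distances. Just inside lay mir-282 at 1932 bp, mir-308 at 1989 bp and mir-4947 at 1995 bp, with signals of 95.1, 132 and 135. Just outside lay mir-2a-1 at 2054 bp, mir-3641 at 2059 bp and mir-2497 at 2117 bp, with signals of 81.7, 5.20 and 273.

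Below the threshold, 124 of the 197 genes without a peak had a summit in the ranked list within 2 kb, or 62.9% (interval 55.8% to 69.7%). Of all genes without a conservative summit, 66.1% had one, so the share at miRNA genes was near the background. The median of the strongest such signals at the miRNA genes was 32.8. Among the 124, mir-4949 in ATPsynC had a ranked summit of 257 (148 and 109.5) and mir-9374 in Hr39 one of 82.0 (52.3 and 35.6), both with the top score and both missing from the conservative list. In all, 185 ranked peaks past the score of 830 were missing from the conservative list, and 3 miRNA genes lay near such a peak. The files do not say why.

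Short sequences at the summits were counted within 50 bp. GGGGG on either strand was present in 34 of the 81 miRNA peaks, or 42% (interval 31.1% to 53.5%), and in 53.1% of all 9211 peaks. GAGAG on either strand was present in 25, or 30.9% (21.1% to 42.1%), and in 25.9% of all peaks. The windows of mir-34, mir-9370 and mir-9377 shown above held GGGGG or CCCCC, while those of mir-4957 and mir-314 held neither sequence.

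Of the 24 genes of miRNA processing and action examined, 7 had a summit within 500 bp of a start, or 29.2% (interval 12.6% to 51.1%), beside 15.5% of all protein-coding genes. Any annotated start counted, and the part of gene size and number of starts in the difference was not tested. Among the 7 were Pop2 (535, with 269 and 254), Not1 (488, with 281 and 223) and twin (59.6, with 33.5 and 27.9), all of the CCR4-NOT complex that shortens poly(A) tails. r2d2 (110.1, with 42.8 and 66.1), a partner of Dicer-2 in siRNA loading, and the chaperones Hsp83 (111, with 34.1 and 77.1), Hsc70-4 (85.9, with 48.8 and 37.8) and Droj2 (97.4, with 56.3 and 35.8) completed the 7. The other 17 had none, among them drosha, pasha, Dcr-1, loqs, AGO1 and gw, the core of the miRNA pathway. gw lies on arm 4, where 1 of all 114 genes had a summit within 2 kb.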

How the data were processed

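The authors deposited peak lists on dm6 made from filtered alignments of each replicate and of both together, per the file notes; which aligner and caller were used, and how the control entered, is not given in the sources used here. Each list holds the authors' peak signal, rescaled IDR score (830 or more in the conservative list) and summit. The deposited −log10 values of the ranked list were not used. No reads or read counts were used, so depth is unknown; the thresholded lists held 7813 peaks for replicate 1 and 6147 for replicate 2. The signal columns of the ranked list were given to a replicate because their intervals matched that replicate's own list in 68281 and 56437 of 87825 rows and the other's in 0.

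Genes came from Ensembl release 115 on the same assembly, without transposable elements. That annotation lists 481 mature miRNAs as genes of their own, which were left out of all gene counts; with them the share over non-coding genes other than miRNA within 2 kb was 27.4%. Genes were named by rule: those of the 12 strongest peaks, those with a summit within 500 bp, role list and pathway members with a peak, those at the edge of 2 kb and the largest clusters. One listed name, mir-183, had no match. The members and lists were chosen with earlier results of these data known. No test was made: shares have exact Clopper-Pearson 95% intervals for counting error only, and peaks are said to differ only where their 2 replicate values do not overlap. The distance code was tested on simulated data. Python 3.11.15, numpy 2.4.6, pandas 2.3.3, scipy 1.17.1 and matplotlib 3.10.9 were used. Alternatives changed the distance, peak list, side and locus gap.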

Additional observations from a re-analysis of the deposited data

How the results depend on the processing

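The counts depended mainly on the distance and on the strength required. Genes with a peak numbered 22 within 500 bp, 39 within 1 kb and 117 within 5 kb, in place of 63, and 40 with only peaks at or above the list's median signal and 41 with upstream summits only. Loci numbered 20, 36 and 95 at those distances, 36 at or above that median and 34 upstream, in place of 55. Distinct peaks numbered 21, 45 and 202, then 43 and 46, in place of 81. The median signal, 128, became 157 within 500 bp, 143 within 1 kb, 146 with the highest score only, 114 in the optimal list and 193 at or above the list's median, the last by construction. The lists of single replicates gave 47 to 56 genes, 39 to 50 loci, 54 to 80 peaks and medians of 71.9 to 77.9, on the scale of 1 replicate. The other alternatives kept the counts within 1.5 times. Alternatives chosen after seeing the data, counting summits with shared replicate records once (79 peaks) and adding ranked peaks past the score (65 genes), were among these. No paired analysis was possible because there is 1 group. The cause of these shifts was not tested. With no read depth, a gene without a peak is not shown to lack binding.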
